A study of Mus musculus with 6 samples.

Results

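The tricarboxylic acid (TCA) cycle enzymes described here are *Cs*, *Idh2*, *Idh3a*, *Idh3b*, *Idh3g*, *Ogdh*, *Dlst*, *Suclg1* and *Mdh2*. They were taken by gene symbol from a table of 41721 genes, and 9 of 9 were found and passed the filter on low counts. The cells were MASMCs, vascular smooth muscle cells cultured from mouse abdominal aorta. Both genotypes carried *Pdk4* alleles with loxP sites around exons 4, 5 and 6 (Pdk4 fl/fl). Pdk4 SMKO mice carried in addition a tamoxifen-inducible Cre driven by the *Myh11* promoter from a transgene on the Y chromosome, and the fl/fl controls lacked Cre. Per the study's methods, the cells came from male mice aged 10 weeks, were used between passages 4 and 8, and received angiotensin II (Ang II) at 1 µM for 48 h. All 6 cultures, 3 per genotype, had Ang II, so no untreated culture enters any comparison. The study calls the 3 cultures of a genotype biological replicates. Whether each came from its own animal is not given. The p-values set the genotype difference against the spread between these cultures, which may not be the spread between mice.

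The TCA cycle runs in the mitochondrial matrix. Citrate synthase (*Cs*) joins acetyl-CoA to oxaloacetate. The isocitrate dehydrogenases then form 2-oxoglutarate, with NAD in the enzyme built from *Idh3a*, *Idh3b* and *Idh3g* and with NADP in the one encoded by *Idh2*. The 2-oxoglutarate dehydrogenase complex, whose first and second components are encoded by *Ogdh* and *Dlst*, makes succinyl-CoA. Succinyl-CoA ligase, whose alpha subunit is *Suclg1*, turns that into succinate, and malate dehydrogenase (*Mdh2*) closes the cycle by restoring oxaloacetate. *Pdk4* encodes a kinase that inhibits pyruvate dehydrogenase, the enzyme that supplies acetyl-CoA to the cycle. The comparison is of transcripts of the cycle in Ang II-treated cells of both genotypes. These also differ in Cre, and the part of *Pdk4* deletion itself in any difference was not tested.

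Libraries held 16526044 to 22481670 counts in all, and 326 to 8231 on each of the 9 genes. *Pdk4* itself was at 34.9 ± 3.07 (SD, n = 3) CPM in fl/fl and 6.93 ± 2.11 (SD, n = 3) in SMKO cells. CPM is a count divided by the size of its library after correction by edgeR's TMM factors. The genotypes stood far apart. Correlations between libraries were at least 0.981 within a genotype and at most 0.748 between genotypes, and the TMM factors were 0.784 to 0.838 in fl/fl and 1.21 to 1.25 in SMKO. *Xist*, the RNA that coats an inactive X chromosome, had 3 to 5 counts in fl/fl and 321 to 610 in SMKO libraries, although the methods name male mice. At a Benjamini-Hochberg adjusted p under 0.05 in edgeR's quasi-likelihood test, 42% of the 14085 genes tested were higher in SMKO cells and 37.1% were lower (5913 and 5232 genes). At library size alone these became 7742 and 3551 genes. "Rose" and "fell" are used below for genes past that threshold.

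Of the TCA cycle enzymes, *Ogdh* and *Suclg1* rose, *Cs*, *Idh2*, *Idh3a*, *Idh3b*, *Idh3g* and *Mdh2* fell, and *Dlst* passed in neither direction. The rises held under TMM, RLE, upper-quartile and library-size scaling and turned only in the ratio to *Actb*. Of the 6 falls those of *Idh3b* and *Mdh2* alone kept their call at library size. All 6 turned in the ratio to the sum of mitochondrial import and chaperone genes (called import genes below). Most of that sum was *Hspa9* and the protease *Lonp1* in fl/fl cells. In bulk RNA, fewer cells of a type and less RNA per cell cannot be told apart. That is 2 of 9 against the 42% of all genes that rose and 6 of 9 against the 37.1% that fell. The median log2 fold change of the 9 was -0.86, beside 0.12 for all genes tested. With the further condition of a 2-fold change, *Ogdh* was called higher and *Idh3b* lower, against 32.8% and 26.5% of all genes. Under TMM scaling, on which this depends, the fl/fl and SMKO values did not overlap for any of the 9. There 2 were higher in SMKO against 43.5% of all genes and 7 lower against 38.3%. Single-gene exact two-sided permutation tests of the TMM-scaled CPM gave p = 0.1 for each, the smallest value that 3 cultures against 3 allow.

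**Figure D1:**
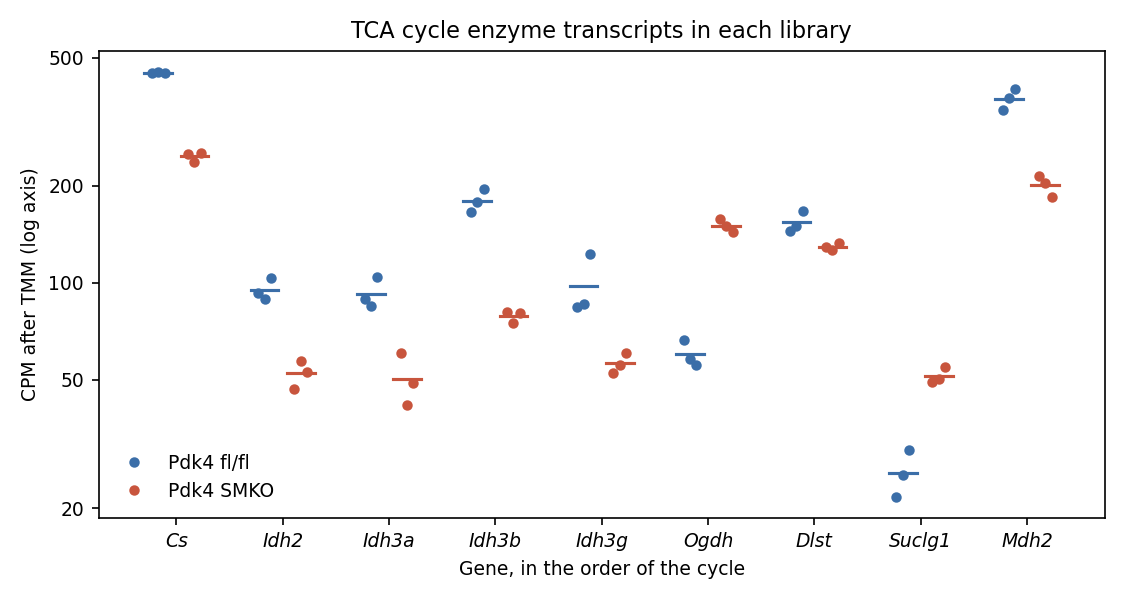
TMM-scaled CPM (log axis) of the 9 TCA cycle enzymes in each of 3 Pdk4 fl/fl and 3 Pdk4 SMKO libraries. Points are libraries and short lines are means. *Ogdh* and *Suclg1* lie higher in all SMKO libraries and the other 7 genes lower, although *Dlst* lies higher in SMKO at library size alone. The directions turn in the ratios to *Actb* (*Ogdh*, *Suclg1*) or to the sum of import and chaperone genes (the others).

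*Cs* (MGP_C57BL6NJ_G0018254, chr10:136543302-136570710, plus strand, C57BL/6NJ assembly) had the most counts of the 9 in fl/fl cells. Its level was 447, 451 and 449 CPM in the fl/fl libraries and 251, 238 and 253 CPM in the SMKO libraries. The fl/fl libraries lay within a few CPM of each other, and every SMKO library was well below them. The means were 449 ± 2.11 and 247 ± 8.34 CPM (SD, n = 3 each), with a log2 fold change of -0.86 ± 0.11 (SE, adjusted p = 3.56e-05). *Csl*, an intronless gene described by the same protein, had 0 counts in the fl/fl libraries and 3, 5 and 5 counts in the SMKO libraries, too few to be tested.

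*Mdh2* (MGP_C57BL6NJ_G0030621, chr5:145593255-145605173, plus strand), which supplies the oxaloacetate that citrate synthase uses, followed *Cs* in abundance. Its CPM was 345, 374 and 399 in fl/fl and 214, 204 and 185 in SMKO cells, with no overlap. The means were 373 ± 27.1 and 201 ± 14.6 CPM, with a log2 fold change of -0.89 ± 0.12 (SE, adjusted p = 5.59e-05). The 4 other rows that the table describes by the *Mdh2* protein, all processed pseudogenes, had 0 counts in each library. *Cs* and *Mdh2* kept their proportion to each other: the ratio of their counts within a library was 1.21 ± 0.0855 in fl/fl and 1.24 ± 0.113 in SMKO cells, a difference of 0.03 on the log2 scale (exact permutation p = 0.7).

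The genes of the mitochondrial isocitrate dehydrogenases, *Idh2* and the 3 *Idh3* subunits, fell under TMM scaling. At library size alone *Idh3b* alone of the 4 kept its call, and all 4 turned in the ratio to the sum of import genes. *Idh2*, the NADP-linked mitochondrial enzyme (MGP_C57BL6NJ_G0032885, chr7:85253440-85275448, minus strand), was at 92.8, 89.0 and 103 CPM in fl/fl and 46.8, 57.4 and 53.1 CPM in SMKO cells. Its log2 fold change was -0.86 ± 0.13 (SE, adjusted p = 0.000122). *Idh3a*, the catalytic subunit of the NAD-linked enzyme (MGP_C57BL6NJ_G0035318, chr9:55144127-55162131, plus strand), was at 89.0, 84.5 and 104 CPM in fl/fl and 60.5, 41.7 and 48.9 CPM in SMKO cells. Under TMM scaling SMKO replicate 1 lay above the other SMKO cultures but below every fl/fl culture, an order that depends on the scaling. The log2 fold change of *Idh3a* was -0.88 ± 0.16 (SE, adjusted p = 0.000481), and it ran from -1.02 to -0.75 as single libraries were left out.

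The other subunits of the NAD-linked enzyme, which bear on its assembly and regulation, differed in how far they fell. *Idh3b* (MGP_C57BL6NJ_G0026919, chr2:137869465-137874709, minus strand) was at 166, 178 and 195 CPM in fl/fl and 81.3, 75.3 and 80.8 CPM in SMKO cells. Its means of 179.8 ± 14.6 and 79.1 ± 3.30 CPM gave the most negative log2 fold change of the 9, -1.18 ± 0.12 (SE, adjusted p = 5.82e-06). The last 5 bases of *Idh3b* overlap *Nop56* on the opposite strand, a gene that fell too (log2 fold change -2.62), and the use of strand in counting is not given in the sources used here. *Idh3g* (MGP_C57BL6NJ_G0036316, chrX:71684801-71692735, minus strand) was at 84.4, 85.9 and 123 CPM in fl/fl and 52.4, 55.6 and 60.7 CPM in SMKO cells. The fl/fl replicate 3 stood above the other fl/fl cultures, and without it the log2 fold change went from -0.80 ± 0.16 (SE, adjusted p = 0.00109) to -0.61. *Idh3g* lies on the X chromosome, and the part of the difference in *Xist* in its value was not tested.

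Ratios of counts within a library do not depend on how libraries are scaled. Those of *Idh3a* to *Idh3b* were 0.536, 0.474 and 0.536 in fl/fl and 0.744, 0.554 and 0.606 in SMKO cells, a difference of 0.29 on the log2 scale. *Idh3b* to *Idh3g* went the other way, from 1.88 ± 0.259 to 1.41 ± 0.121, a difference of -0.40. Both differences reached the smallest exact permutation p of 0.1 (0.16 after adjustment over the 8 pairs compared). For *Idh3a* to *Idh3g* (0.962 and 0.904, p = 0.7) and *Idh2* to *Idh3a* (1.03 and 1.08, p = 0.8) the genotypes overlapped in the exact permutation tests, and the sign of both differences changed when SMKO replicate 2 was left out.

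*Ogdh* and *Suclg1* act in consecutive steps downstream of isocitrate dehydrogenase, and both rose (in the ratio to *Actb* both were lower). *Ogdh*, the thiamine-dependent first component of the 2-oxoglutarate dehydrogenase complex (MGP_C57BL6NJ_G0018413, chr11:3495594-3565583, plus strand), was at 66.5, 58.2 and 55.8 CPM in fl/fl and 158, 150.1 and 143 CPM in SMKO cells. Each SMKO culture had more than any fl/fl culture. The means were 60.2 ± 5.63 and 150.4 ± 7.23 CPM, and the log2 fold change of 1.32 ± 0.12 (SE, adjusted p = 3.41e-06) was the highest of the 9. It ran from 1.26 to 1.40 as single libraries were left out. *Suclg1* (MGP_C57BL6NJ_G0031326, chr6:75762164-75790516, plus strand) had the lowest CPM of the 9 in fl/fl but not in SMKO cells, at 21.7, 25.3 and 30.3 CPM in fl/fl and 49.4, 50.2 and 54.6 CPM in SMKO cells. Its means of 25.8 ± 4.32 and 51.4 ± 2.84 CPM gave a log2 fold change of 0.996 ± 0.148 (SE, adjusted p = 0.000123), just under a 2-fold change.

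*Dlst*, the lipoate-bearing second component that accepts the succinyl group from *Ogdh* (MGP_C57BL6NJ_G0020340, chr12:88340968-88366782, plus strand), did not follow it. It was at 145, 150.5 and 167 CPM in fl/fl and 129, 126 and 133 CPM in SMKO cells. The groups did not overlap, but the log2 fold change was -0.25 ± 0.11 (SE, adjusted p = 0.0576), and at library size alone it was 0.36 (adjusted p = 0.0116). The *Ogdh* to *Dlst* ratio of counts was 0.458, 0.387 and 0.335 in fl/fl and 1.22, 1.19 and 1.08 in SMKO cells. *Ogdh* thus had fewer counts than *Dlst* in every fl/fl library and more in every SMKO library, a log2 difference of 1.57 (exact permutation p = 0.1, adjusted 0.16).

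**Figure D2:**
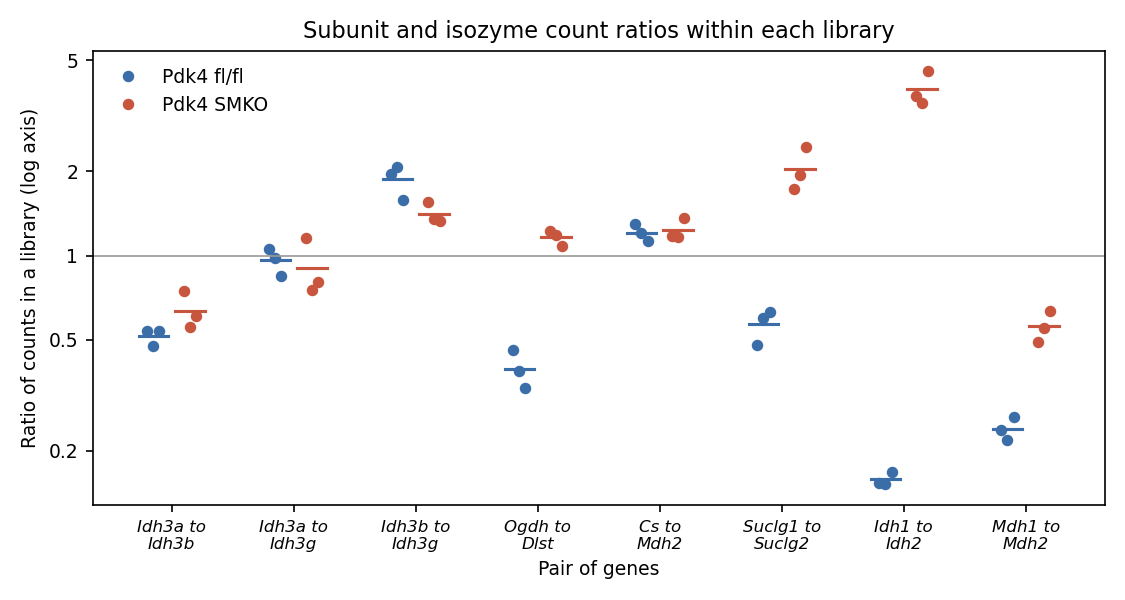
Ratio of counts within a library (log axis) for 8 pairs of subunits and isozymes, with points for libraries and short lines for means. *Idh2* to *Idh3a* is not drawn, and *Suclg1* to *Suclg2*, chosen after the values were seen, carries no test. *Ogdh* to *Dlst*, *Suclg1* to *Suclg2*, *Idh1* to *Idh2* and *Mdh1* to *Mdh2* are higher in all SMKO libraries. *Cs* to *Mdh2* and *Idh3a* to *Idh3g* overlap.

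Promoter windows of the genes at the extremes are shown so that the sequence upstream of the largest rise, the smaller rise and the largest fall can be read side by side (under the scalings named above). They run from 250 bases before to 50 after a RefSeq gene start in GRCm38.p6, a different assembly from that of the counts, and 8 of the 9 genes were matched, *Idh3a* not. *Ogdh* is chr11:6291347-6291646 on the plus strand (the first of 6 windows in the table), *Suclg1* is chr6:73248255-73248554 on the plus strand and *Idh3b* is chr2:130284402-130284701 on the minus strand. Capitals mark matches on either strand to the motifs searched.
Ogdh: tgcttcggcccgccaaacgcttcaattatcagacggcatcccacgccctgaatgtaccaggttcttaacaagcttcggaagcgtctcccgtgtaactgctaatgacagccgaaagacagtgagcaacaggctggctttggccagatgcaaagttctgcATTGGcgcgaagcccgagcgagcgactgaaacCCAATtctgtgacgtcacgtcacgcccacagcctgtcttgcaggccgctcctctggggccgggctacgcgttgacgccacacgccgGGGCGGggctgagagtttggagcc
Suclg1: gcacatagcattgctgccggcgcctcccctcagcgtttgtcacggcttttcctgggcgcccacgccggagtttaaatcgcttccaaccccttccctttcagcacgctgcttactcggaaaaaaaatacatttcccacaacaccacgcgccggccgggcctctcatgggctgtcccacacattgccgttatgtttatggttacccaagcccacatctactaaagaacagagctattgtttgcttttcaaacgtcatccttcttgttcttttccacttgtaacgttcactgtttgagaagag
Idh3b: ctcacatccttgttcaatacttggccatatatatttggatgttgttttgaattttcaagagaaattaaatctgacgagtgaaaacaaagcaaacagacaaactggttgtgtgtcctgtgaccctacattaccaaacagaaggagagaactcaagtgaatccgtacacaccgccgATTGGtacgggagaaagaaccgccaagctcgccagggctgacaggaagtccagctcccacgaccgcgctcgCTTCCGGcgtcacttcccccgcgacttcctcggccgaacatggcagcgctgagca
The *Ogdh* window holds the NFY box CCAAT on each strand and the SP1 box GGGCGG after the start. The *Idh3b* window holds CCAAT and the ETS core CCGGAAG. None of the motifs searched is in the *Suclg1* window. CCAAT was found in 4 of the 8 promoters (*Cs*, *Idh2*, *Idh3b*, *Ogdh*) and in 37.9% of 27025 RefSeq promoters. GGGCGG was found in 5 of 8 and in 35.9% of all, and CCGGAAG in 3 of 8 and in 9.12%. The YY1 core AANATGGCG was in the *Idh3g* promoter and in 2.51% of all. Neither the ESRR half-site AAGGTCA (4.66% of all) nor the MYC box CACGTG (7.24%) was in any of the 8. CCAAT and GGGCGG are thus in the windows of *Ogdh* and of *Cs* and *Idh2* alike.

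Summed over the 9 genes, the level was 1458, 1497 and 1627 CPM in fl/fl and 1043, 998 and 1013 CPM in SMKO cells under TMM scaling, but at library size alone the log2 ratio of the sums was 0.02. The make-up of that sum, which no scaling can alter, moved toward *Ogdh*, *Dlst* and *Suclg1*. *Cs* went from 29.5 ± 1.64% to 24.3 ± 0.605% of the counts of the 9 genes and *Mdh2* from 24.4 ± 0.675% to 19.7 ± 1.26% (SD, n = 3 each). *Ogdh* went from 3.96 ± 0.570% to 14.8 ± 0.538%, and *Suclg1* from 1.68 ± 0.187% to 5.05 ± 0.330%. *Dlst* took a larger share in SMKO cells, 12.7 ± 0.384% against 10.1 ± 0.143%. Each of the 3 *Idh3* subunits and *Idh2* had a smaller mean share, the most so *Idh3b* (11.8 ± 0.327% and 7.77 ± 0.216%).

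**Figure D3:**
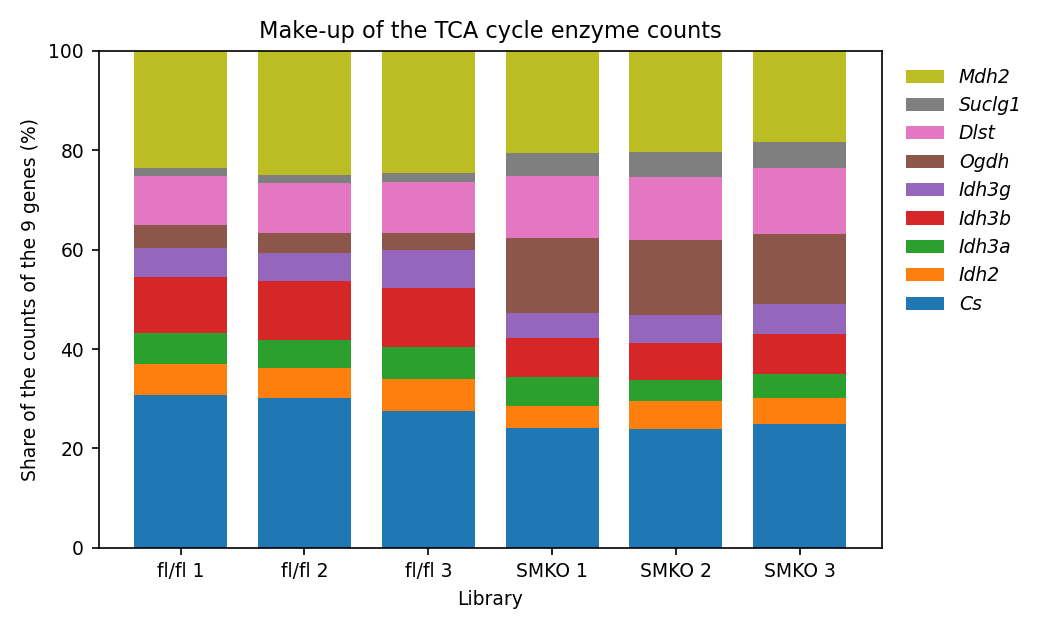
Share of the counts of the 9 genes taken by each gene (% of the sum, stacked) in each library. *Ogdh* takes 3.96% on average in fl/fl and 14.8% in SMKO libraries, and *Cs* and *Mdh2* take less in SMKO.

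Per length, as CPM per kilobase of transcript, the order of levels in fl/fl cells was *Cs* (159), *Mdh2* (105), *Dlst* (55.7), *Idh3b* (52.4), *Idh3a* (38.5), *Idh2* (36.8), *Idh3g* (36.2), *Ogdh* (11.03) and *Suclg1* (5.73). The neighbours *Dlst* and *Idh3b*, *Idh3a* and *Idh2*, and *Idh2* and *Idh3g* overlapped in their libraries. In SMKO cells *Cs* (87.5), *Mdh2* (56.4) and *Dlst* (46.8) kept the first places. *Ogdh* (27.6) came next, above *Idh3b* (23.1), *Idh3a* (21.0), *Idh3g* (20.8) and *Idh2* (20.3), whose ranges overlapped from each to the next. *Suclg1* (11.4) remained last. *Ogdh* was therefore below every *Idh* gene of the 9 in fl/fl and above all 4 in SMKO cells, on a scale where the first component of the complex can be set beside the second: 11.03 ± 1.03 to 55.7 ± 4.03 in fl/fl and 27.6 ± 1.33 to 46.8 ± 1.199 in SMKO cells.

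The 9 other genes of the cycle were also divided. At the adjusted p of 0.05, 3 rose, 2 fell and 4 did neither, with a median log2 fold change of 0.03 (at library size alone, 6 rose and 1 fell). Of all genes tested 42% rose and 37.1% fell, and at library size alone 7742 and 3551 of 14085 did. Subunits of succinate dehydrogenase went separate ways: *Sdha*, the flavoprotein, rose (0.64, adjusted p = 0.00094), *Sdhd*, a membrane anchor, fell (-1.63, adjusted p = 2.89e-06), and *Sdhb*, the iron-sulfur subunit, had a log2 fold change of 0.03 (adjusted p = 0.873). The other membrane anchor, *Sdhc*, rose (0.68). *Fh1*, the fumarase that precedes *Mdh2*, rose by 1.27 (adjusted p = 1.44e-05). *Dld*, the third component of the 2-oxoglutarate dehydrogenase complex, which other dehydrogenase complexes share, had a log2 fold change of 0.27 (adjusted p = 0.0866).

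**Figure D4:**
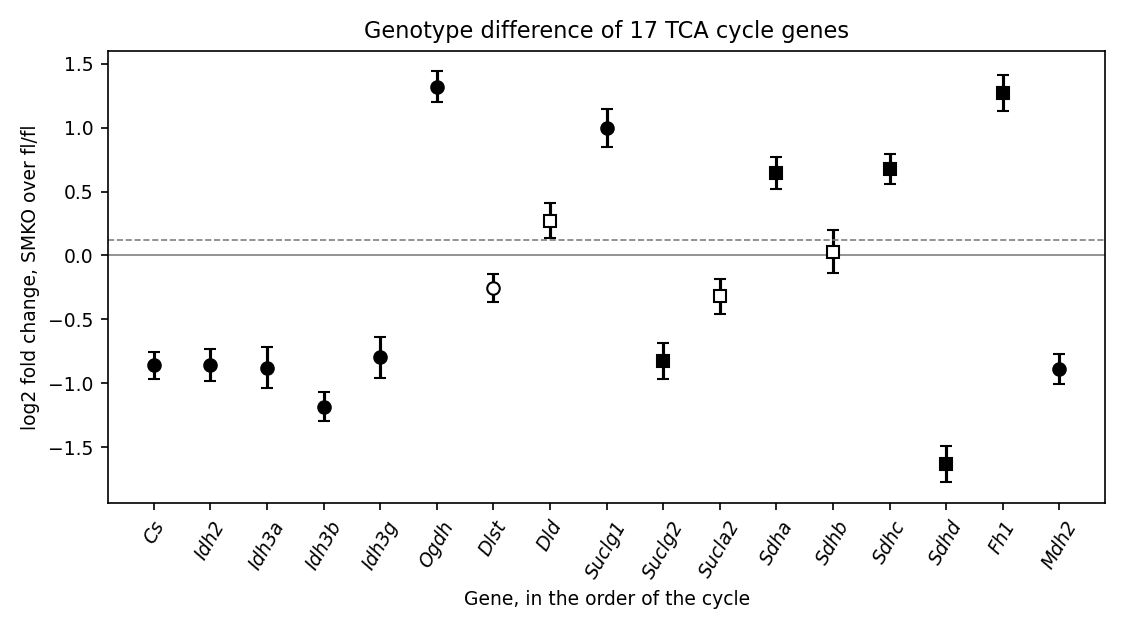
log2 fold change of 17 TCA cycle genes, SMKO over fl/fl under TMM scaling, in the order of the cycle, with SE bars. Circles are the 9 genes described here and squares 8 others, filled where the adjusted p is under 0.05; the dashed line is the median of all genes, 0.12. 5 of the 17 are called higher and 8 lower, beside 42% and 37.1% of all genes tested. At library size alone *Dlst* turns higher, and *Idh3b* and *Mdh2* are the 2 of the 9 still called lower.

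*Suclg1* pairs with *Suclg2* or *Sucla2* to form the GTP- or ATP-linked succinyl-CoA ligase, and neither beta subunit rose with it. *Suclg2* fell (-0.83, adjusted p = 0.000284) and *Sucla2* had a log2 fold change of -0.32 (adjusted p = 0.0521). The *Suclg1* to *Suclg2* ratio of counts was 0.480, 0.596 and 0.629 in fl/fl and 1.73, 1.95 and 2.45 in SMKO cells. The *Suclg1* to *Sucla2* ratio was 0.309 ± 0.0163 and 0.775 ± 0.0410. Both ratios, chosen after the values were seen, carry no test.

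Relatives of the 9 that act in the cytosol or in certain tissues were tested in 6 of 8 cases. Of these 4 rose and 1 fell, beside 42% and 37.1% of all genes tested. *Idh1*, the cytosolic NADP-linked isocitrate dehydrogenase, was at 14.2, 13.5 and 17.4 CPM in fl/fl and 175, 201 and 242 CPM in SMKO cells. Its log2 fold change was 3.78 ± 0.17 (SE), while its mitochondrial relative *Idh2* fell. The *Idh1* to *Idh2* ratio was 0.158 ± 0.00909 in fl/fl and 3.93 ± 0.559 in SMKO cells, so that the cytosolic form had the fewer counts in every fl/fl library and the more in every SMKO library (exact permutation p = 0.1, adjusted 0.16). The cytosolic *Mdh1* had a log2 fold change of 0.32 (adjusted p = 0.0519), and the *Mdh1* to *Mdh2* ratio went from 0.240 ± 0.0236 to 0.558 ± 0.0713 with no overlap (log2 difference 1.22, exact permutation p = 0.1). *Acly*, which splits exported citrate, rose by 0.77 and *Aco1* by 0.35. *Ogdhl*, a relative of *Ogdh*, rose too (2.00), from 6.14 ± 0.516 to 24.6 ± 5.22 CPM. *Dhtkd1*, the relative that acts on 2-oxoadipate, fell (-1.57).

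Counts of genes on either side of the cycle are given beside the 42% of all genes tested that rose and the 37.1% that fell. Of 14 genes of pyruvate entry, 6 rose and 5 fell, with a median log2 fold change of 0.00. *Pdha1*, the catalytic alpha subunit of pyruvate dehydrogenase, had a log2 fold change of 0.04 (adjusted p = 0.774), its beta partner *Pdhb* fell (-1.53), *Dlat* rose (0.62) and *Pdhx* fell (-1.82). Of 14 genes that carry glutamine, aspartate or malate in or out, 4 rose and 6 fell. *Got2*, the mitochondrial aspartate aminotransferase that shares oxaloacetate with *Cs* and *Mdh2*, fell from 909.9 ± 73.0 to 180.2 ± 18.1 CPM, and *Pck2* fell by 1.26 on the log2 scale. *Glud1*, which makes 2-oxoglutarate from glutamate, rose (0.56). Of 8 lipoate and assembly genes, 5 rose and 3 passed in neither direction. *Lias*, which makes the lipoate that *Dlst* carries, rose by 0.75, and *Mrps36*, an adaptor of the 2-oxoglutarate dehydrogenase complex, had a log2 fold change of -0.12 (adjusted p = 0.63).

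The enzymes are made in the cytosol and imported, and genes of mitochondrial import and chaperones were examined beside them. Of these 15 genes, 11 fell and 1 rose (at library size alone 4 rose), with a median log2 fold change of -1.34. Of all genes tested 37.1% fell and 42% rose. *Hspa9*, the matrix chaperone that pulls proteins in, fell from 2582 ± 17.9 to 358 ± 23.5 CPM and *Lonp1*, the matrix protease, from 1044 ± 157 to 86.8 ± 7.33 CPM. *Tomm20* (-1.98) and *Vdac2* (-1.34) fell as well, and *Tomm70a* (0.92) was the one that rose. Measured against the sum of these genes, each of the 9 was higher in SMKO cells, from 0.73 for *Idh3b* to 3.24 for *Ogdh* on the log2 scale. That sum was 6146 ± 313 CPM in fl/fl and 1634 ± 54.0 CPM in SMKO cells, and *Hspa9* and *Lonp1* made up most of it in fl/fl. Of the 15 genes 1 rose and 3 passed in neither direction, and ratios to single import genes were not taken. Measured against *Actb*, the reference gene of the study's RT-qPCR, each was lower, from -4.44 for *Idh3b* to -1.94 for *Ogdh*. *Actb* itself was at 246 ± 24.0 CPM in fl/fl and 2361 ± 116 CPM in SMKO cells. By that RT-qPCR the paper reports *Ogdh* mRNA as higher in Ang II-treated SMKO cells, the other way from this ratio.

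**Figure D5:**
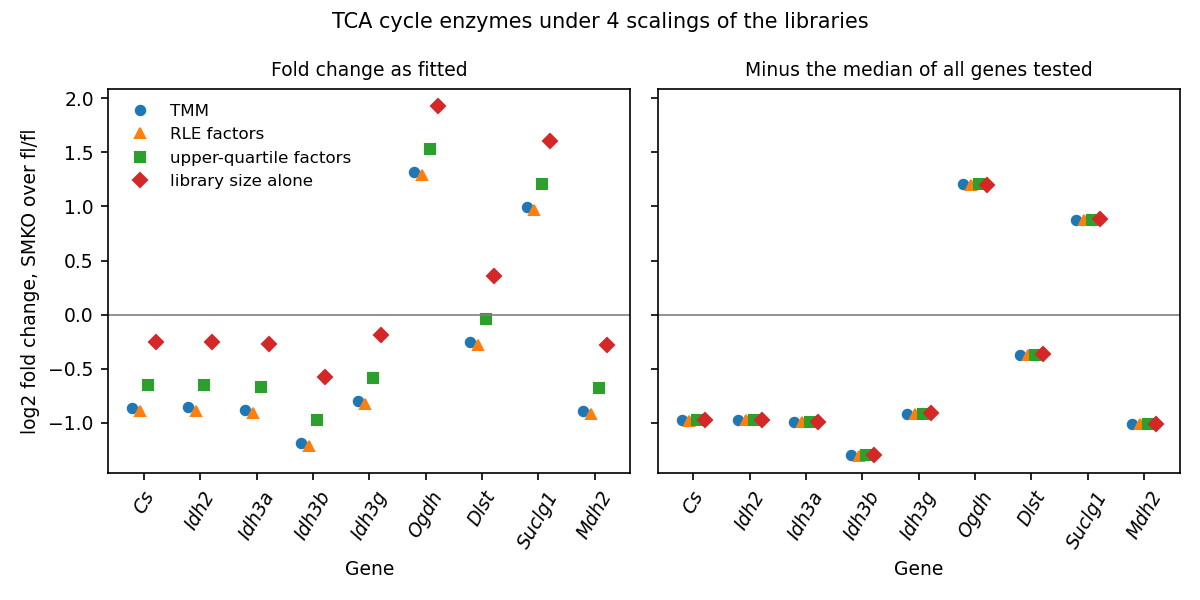
log2 fold change of the 9 genes (SMKO over fl/fl) under TMM, RLE, upper-quartile and library-size scaling, as fitted (left) and minus the median of all genes tested under the same scaling (right). Library size alone moves each gene up, turning *Dlst* to 0.36. A scaling shifts every gene and the median by nearly the same amount, so the right panel could not differ much.

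Scaling moves the zero line of these values and hardly their spacing, since it shifts all genes by nearly the same amount. Median log2 fold changes of all genes tested were 0.12 under TMM, 0.09 under RLE, 0.33 under upper-quartile and 0.72 under library-size scaling. Relative to that median under TMM, *Idh3b* was at -1.30, *Mdh2* at -1.01, *Idh3a* at -0.996, *Cs* and *Idh2* at -0.98 and *Idh3g* at -0.92. On the same relative scale *Dlst* was at -0.37, *Suclg1* at 0.88 and *Ogdh* at 1.204, so that *Dlst* lay between the genes that fell and those that rose. That order is the same under the 4 scalings because of the shared shift, and is no separate check.

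Nearest to the median profile of the 9 genes over the 6 libraries, by Euclidean distance of centred log2 CPM among protein-coding genes, were *Zfp28*, *Cse1l*, *Rac1*, *Nabp2* and *Rnf4*. Their distances were 0.0989 to 0.108 and their log2 fold changes -0.85 to -0.75. None of the 5 is an enzyme of the cycle. The median profile was close to that of the genes that fell and does not describe *Ogdh* or *Suclg1*. On the same measure *Ogdh* lay 2.685 and *Suclg1* 2.31 from *Cs*, and *Mdh2* 0.235.

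The label of vascular smooth muscle was checked by markers. All 8 were tested, 4 rose and 4 fell, and their summed level was 784 to 810 CPM in fl/fl and 722 to 953 CPM in SMKO cells. *Acta2* rose (1.59), from 233 ± 40.7 to 700 ± 74.4 CPM, and made up most of the SMKO sum. *Tagln* fell (-2.26), from 252 ± 38.5 to 52.6 ± 29.6 CPM. *Myh11*, whose promoter drives the Cre, was near 0 in both genotypes (0.533 to 0.756 and 2.19 to 2.72 CPM). It was among the 4 that rose, as were *Lmod1* (mean 1.93 to 9.80 CPM) and *Des* (mean 0.129 to 0.966 CPM). Each of the 4 that fell was above these in fl/fl cells, and *Acta2* was the only such marker that rose. Markers of other cells moved with genotype, beside the 42% of all genes tested that rose and the 37.1% that fell. The 6 fibroblast markers (3 rose, 1 fell) summed to 625 to 854 CPM in fl/fl and 5146 to 7047 CPM in SMKO cells, and the mesothelial markers, with 7 of 7 tested rising, to 74.2 to 99.9 and 722 to 1323 CPM. Endothelial markers (2 tested, both fell) summed to 14.1 to 23.7 and 2.83 to 5.61 CPM. Of the 6 macrophage markers tested 5 rose and 1 fell, 4 of the 7 in the table were at 0 in all fl/fl libraries, and their sums were 21.4 to 38.0 and 9.70 to 30.5 CPM. The marker that fell made up nearly all of the fl/fl macrophage sum, and 1 gene most of the SMKO fibroblast sum. The 6 proliferation markers (1 rose, 2 fell) summed to 362 to 440 and 236 to 395 CPM. The part of these differences in the values of the TCA cycle enzymes was not tested.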

How the data were processed

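RNA of 6 MASMC cultures was sequenced. The counts deposited by the authors are whole, not normalized, and come in 1 table with gene lengths. The aligner, the counter and the use of strand are not given in the sources used here. The paper and the labels name different library kits. The submitters' processing notes name GRCm39, whereas all but 625 identifiers are of the C57BL/6NJ assembly, whose coordinates are used. Those 625 features carry no gene name (0.946 to 1.39% of counts) and were kept.

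The tools were edgeR 4.0.16 (filterByExpr, TMM, quasi-likelihood test on genotype, Benjamini-Hochberg adjustment over 14085 genes), limma 3.58.1 and DESeq2 1.42.0 in R 4.3.3. The SE is the log2 fold change over the root of F. The fit was tested on simulated data with few changed genes, as many set higher as lower. That cannot show how scaling behaves where most genes differ, as they do here. Samples were grouped by the genotype label. No column lacked a sample.

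The members, the gene lists and the tests were chosen with earlier results of these data known. Named genes were the 9 enzymes, *Pdk4*, *Actb*, up to 4 genes per list with the most counts, any gene alone against its list, and the 5 nearest profiles. *Fh1*, *Sdhb*, *Sdhc*, *Sucla2*, *Suclg2*, *Ogdhl*, *Csl*, *Nop56*, *Xist*, *Myh11*, *Lmod1*, *Des* and the ratios to *Suclg2* and *Sucla2* were chosen after their values were seen. 2 of the genes that the rule takes in are not reported here. The alternatives were scaling by RLE, by upper quartile or by library size, DESeq2, other filters, protein-coding genes alone, a test against a 1.2-fold change, the replicate block, leaving out each library, and ratios to *Actb* or import genes. Sequences are from RefSeq (GRCm38.p6).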

Additional observations from a re-analysis of the deposited data

How the results depend on the processing

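*Ogdh* and *Suclg1* were called higher under scaling by RLE, by upper quartile and by library size, DESeq2, the other filters, protein-coding genes alone, the 1.2-fold test, the replicate block and without each library. The number of the 9 called lower was 6 in these and without each library (6 to 6, with 2 to 2 called higher), except under RLE, DESeq2 and protein-coding genes alone, where *Dlst* was added (-0.28 in each), and at library size alone, where it was 2. There *Cs* (-0.25), *Idh2* (-0.25), *Idh3a* (-0.27) and *Idh3g* (-0.19) lost their calls and *Dlst* reversed to 0.36. Calls higher by 2-fold were 2 in place of 1 under upper-quartile and library-size scaling, without the filter, with a minimum of 10 counts in each library and under the replicate block (1 to 2 without single libraries, the 2 being without fl/fl replicate 3, SMKO replicate 1 or SMKO replicate 2), since *Suclg1* lies at the limit. Calls lower by 2-fold were 0 under upper-quartile and library-size scaling (1 to 2 without single libraries, the 2 being without SMKO replicate 1, which adds *Idh3a*). The log2 ratio of the summed level, -0.59, was -0.37 under upper-quartile scaling, 0.0218 at library size alone and -0.49 with that minimum (-0.62 to -0.55 without single libraries).

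At library size alone, 6 of the other TCA cycle genes rose and 1 fell, 7 of the glutamine, aspartate and malate genes rose and 4 of the import genes rose. Over all 14085 genes tested, 7742 rose and 3551 fell there. Without single libraries, 3 to 4 of the other TCA cycle genes rose and 2 to 3 fell. In the ratio to *Actb*, *Ogdh* (-1.94) and *Suclg1* (-2.26) reversed. In the ratio to the sum of the import genes, *Cs* (1.05), *Idh2* (1.05), *Idh3a* (1.02), *Idh3b* (0.73), *Idh3g* (1.13), *Dlst* (1.66) and *Mdh2* (1.02) did. The cause was not tested.

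Without single libraries, the log2 differences of ratios were 0.17 to 0.38 for *Idh3a* to *Idh3b*, -0.52 to -0.32 for *Idh3b* to *Idh3g*, 1.47 to 1.69 for *Ogdh* to *Dlst*, 4.52 to 4.71 for *Idh1* to *Idh2* and 1.12 to 1.30 for *Mdh1* to *Mdh2*. Sign changes came without SMKO replicate 2 for *Idh3a* to *Idh3g* (0.0108, range -0.30 to 0.0108) and *Idh2* to *Idh3a* (-0.17, range -0.17 to 0.25), and for *Cs* to *Mdh2* without fl/fl replicate 3 (-0.0201) or SMKO replicate 3 (-0.0436, range -0.0436 to 0.0818).

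Deviations of samples with the same replicate number had correlations of 0.0396, 0.0604 and 0.176. Replicates 1 and 2 were correlated to a like degree across numbers (0.0431 and 0.0533), so the numbers were not taken as pairs. Replicate 3 went against the other numbers (-0.131 to -0.0723). Under the replicate block 2 of the 9 rose and 6 fell, and over all genes 5895 rose and 5264 fell. With 3 cultures per genotype, no exact permutation p could go below 0.1.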
